A study of Mus musculus with 24 samples.

Results

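The genes by which the kidney concentrates urine were followed here in 24 whole kidneys of age-matched male mice, of about weaning age per the study's methods. They are 10 in all: the aquaporins *Aqp2*, *Aqp3*, *Aqp4* and *Aqp6*, the vasopressin receptor *Avpr2*, the urea transporter *Slc14a2*, the myo-inositol transporter *Slc5a3*, and the sodium channel subunits *Scnn1a*, *Scnn1b* and *Scnn1g*. They were chosen by name, and their probes were those whose design accession maps to one of these symbols: 15 probes, 1 each for *Aqp2* (NM_009699), *Aqp3* (NM_016689), *Scnn1a* (NM_011324), *Scnn1b* (NM_011325) and *Scnn1g* (NM_011326) and 2 each for *Aqp4* (NM_009700), *Aqp6* (NM_175087), *Avpr2* (NM_019404), *Slc14a2* (NM_207651 and NM_030683) and *Slc5a3* (NM_017391). Of 27971 genes tested on the array 9 were members. The remaining member, *Scnn1g*, was not well above background on any of the 24 arrays.

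The kidneys came from mgb+/+ mice (6 control kidneys) and from homozygous megabladder mice, written mgb-/-, whose atonic bladder keeps urine back. The mgb-/- kidneys were graded by the parenchyma left on ultrasound as mild (7 kidneys), moderate (5) or severe (6) hydronephrosis, a swelling of the kidney by retained urine. Each kidney was hybridised to 1 single-colour array. The labels do not say whether some kidneys came from the same mouse, so the p-values below measure the spread between kidneys. The mutation is carried in every cell, and the whole kidney was extracted, so cortex, medulla, papilla and pelvis enter each value together. In such bulk samples fewer cells of a type and less RNA per cell cannot be told apart.

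Urine is concentrated in the collecting duct. The pituitary hormone vasopressin binds the V2 receptor, encoded by *Avpr2*, on the basolateral face of principal cells, cyclic AMP rises, and vesicles carrying the water channel aquaporin 2 fuse with the apical membrane, so that water leaves the urine for the hypertonic medulla. Aquaporins 3 and 4 let this water out through the basolateral membrane, urea transporters keep urea in the inner medulla, the epithelial sodium channel takes up sodium under aldosterone, and medullary cells hold osmolytes such as myo-inositol and betaine against the high tonicity around them.

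A level is given as log2 processed signal minus the log2 75th percentile of the same array, so that 0 is that percentile, and a difference of 1 is a factor of 2. Levels of different probes are not comparable. The 75th percentile ran from 496 to 968 signal units, and 55.1% to 70.7% of probes were well above background. The array of severe replicate 4 stood apart, with the lowest of these shares. It had 660 outlier spots against 102 to 261 on the other 23 arrays. The second *Slc5a3* probe is also given without it, and the calls were repeated without each kidney, but the correlations were not. There were 3 slides of 8 arrays, and every slide carried 2 control and 6 mgb-/- arrays. Their number, not a read depth, limits the precision.

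RefSeq sequence (GRCm38.p6) was found for 7 of the 10 members in a table of gene starts. The 250 bases before the start are shown for *Aqp2* and *Slc5a3*, because these 2 members differed between mgb-/- and control kidneys. In *Aqp2* (chr15:99578806-99579055, plus strand) capitals mark the half-site of the cyclic AMP response element, searched as TGACG on both strands, and a GATA motif, searched as AGATAA. In *Slc5a3* (chr16:92058072-92058321, plus strand) capitals mark GC boxes, searched as GGGCGG, of which the leading 2 overlap by their shared base.
Aqp2: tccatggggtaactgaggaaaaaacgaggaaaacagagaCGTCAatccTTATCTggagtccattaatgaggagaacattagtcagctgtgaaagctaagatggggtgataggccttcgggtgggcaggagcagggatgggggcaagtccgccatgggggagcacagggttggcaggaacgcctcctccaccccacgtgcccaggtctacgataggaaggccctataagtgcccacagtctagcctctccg
Slc5a3: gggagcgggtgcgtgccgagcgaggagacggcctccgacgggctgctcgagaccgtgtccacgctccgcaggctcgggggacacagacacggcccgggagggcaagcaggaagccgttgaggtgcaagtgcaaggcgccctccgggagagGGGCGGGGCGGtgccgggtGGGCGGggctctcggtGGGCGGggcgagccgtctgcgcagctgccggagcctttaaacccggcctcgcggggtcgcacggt
The half-site lies 211 bases before the *Aqp2* start and the GATA motif 202 bases before it, both on the minus strand. *Aqp2* was the only one of the 7 members to hold either of them, and 17.9% and 10.3% of 27025 promoters of the same length did. The upstream bases of *Slc5a3* held neither, nor the core TGGAAA of the tonicity element, which 18.7% of promoters held and none of the 7 members. The half-site AGAACA of the glucocorticoid receptor element was in *Aqp2* and *Avpr2* and in 16.2% of promoters. GC boxes were in 4 of the 7 and in 32.9% of all promoters. These matches are letters in a window and say nothing of factor binding.

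*Aqp2*, the apical water channel that vasopressin controls, was higher in mgb-/- than in control kidneys. Its level in the 6 control kidneys was 4.52, 3.83, 4.43, 3.61, 4.92 and 4.64. The mild kidneys measured 5.32, 5.45, 5.97, 5.56, 4.93, 5.29 and 5.36, the moderate kidneys 4.71, 3.62, 5.73, 5.49 and 4.71, and the severe kidneys 5.63, 5.54, 5.14, 5.96, 4.98 and 4.88. All 7 mild kidneys were above the highest control, the lowest of them by under 0.02, and so were 2 moderate and 5 severe kidneys. Such a full separation of mild from control kidneys was seen in 3% of all genes tested. Over all 18 mgb-/- kidneys the mean level rose by 0.91 ± 0.25 (log2, SE), a 1.88-fold difference with a 95% interval of 1.32 to 2.69 (limma, adjusted p = 0.019), and 17 of the 18 were above the control mean.

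By group, *Aqp2* had a mean of 4.33 ± 0.50 (SD) in control kidneys, and of 5.41 ± 0.31, 4.85 ± 0.83 and 5.36 ± 0.42 in the mild, moderate and severe grades. It rose by 1.09 ± 0.28 (SE) in mild kidneys (limma, adjusted p = 0.026) and by 1.03 ± 0.29 in severe kidneys (limma, adjusted p = 0.023). In moderate kidneys the difference was 0.53 ± 0.31, which did not pass the test (adjusted p = 0.36 in limma), and moderate replicate 2 was as low as the lowest control. The means ran in the order mild, severe, moderate, control, and no neighbours in it differed in the test: severe minus mild was -0.055 with a 95% interval of -0.64 to 0.53, and severe minus moderate 0.50 with an interval of -0.13 to 1.14. Moderate minus mild was -0.56, with an interval of -1.17 to 0.057. Within the slides mgb-/- minus control was 1.26, 0.43 and 1.04, the same direction on all 3. The call over all mgb-/- kidneys was lost without control replicate 2 (adjusted p = 0.057 in limma) or without control replicate 4 (adjusted p = 0.066), the 2 control kidneys with the lowest *Aqp2*. With arrays scaled by their median it held over all mgb-/- kidneys but was lost in mild (adjusted p = 0.073 in limma) and severe kidneys (adjusted p = 0.056).

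**Figure D1:**
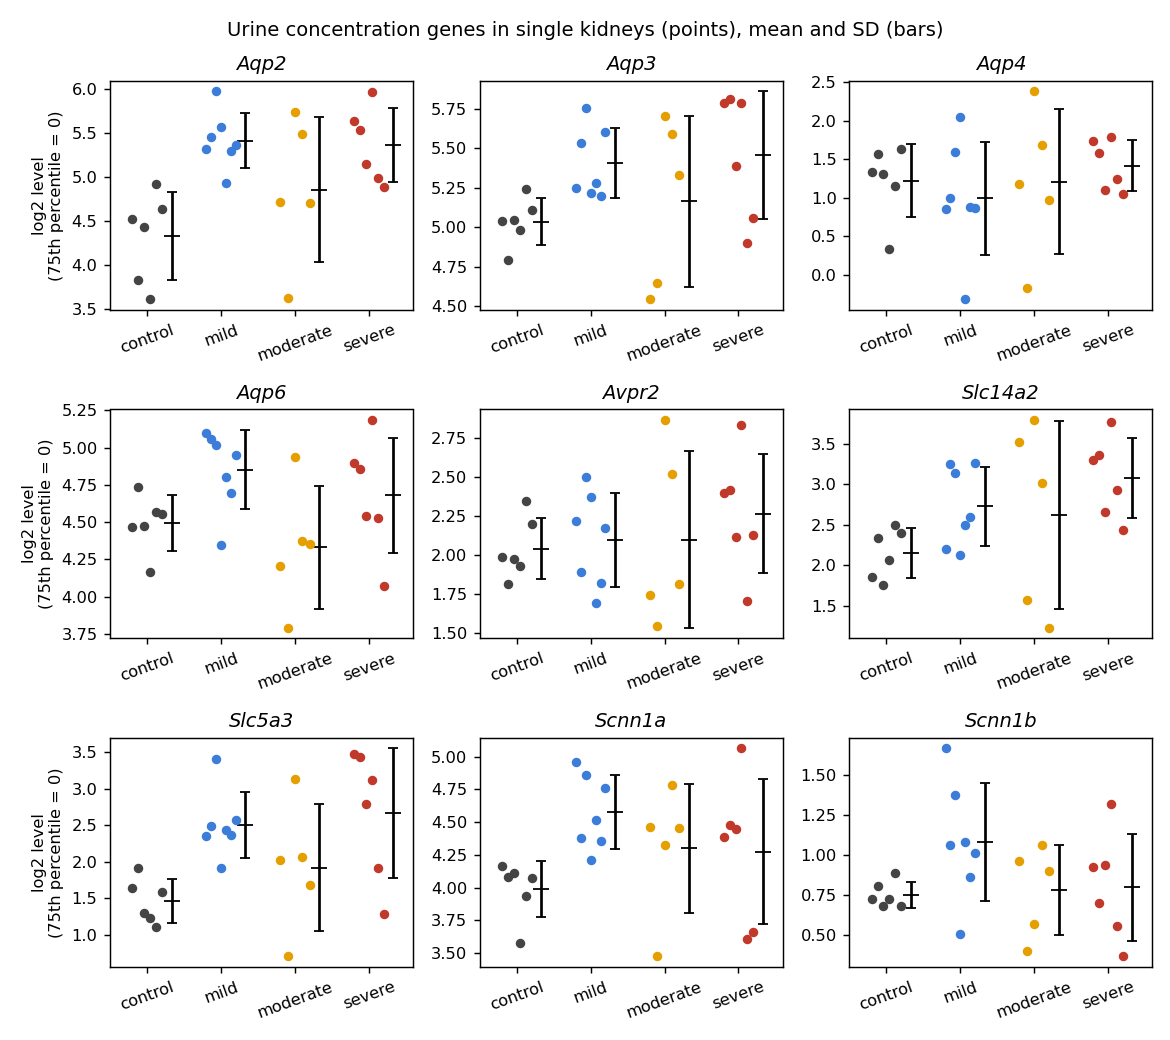
Log2 level (0 is the array's 75th percentile) of the 9 measurable genes in each kidney, by group. Points are kidneys in order of replicate, and bars give the mean and SD of 6 control, 7 mild, 5 moderate and 6 severe kidneys. In *Aqp2*, *Slc5a3* and *Scnn1a* all 7 mild points lie above every control point, as in 3% of all genes tested. The moderate kidneys spread most in *Aqp2*, *Aqp3*, *Aqp4*, *Aqp6*, *Avpr2* and *Slc14a2*.

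The basolateral water channels did not pass the test. *Aqp3*, which also carries glycerol, measured 5.04 ± 0.15 (SD) in control kidneys and 5.41 ± 0.22, 5.16 ± 0.54 and 5.45 ± 0.40 in the mild, moderate and severe grades. Its control kidneys lay within 4.79 to 5.24, and 12 of 18 mgb-/- kidneys were above them. The difference over all mgb-/- kidneys was 0.32 ± 0.16 (SE), with a 95% interval of -0.016 to 0.65 (limma, adjusted p = 0.20). *Aqp3* is also made by urothelium, whose markers were higher in severe kidneys as given further on, and their part in its value was not tested.

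*Aqp4*, the other basolateral channel of principal cells, measured 1.22 ± 0.47 (SD) in control kidneys and 0.99 ± 0.74, 1.21 ± 0.94 and 1.42 ± 0.33 in the 3 grades by its brighter probe. The groups overlapped throughout: controls ran from 0.33 to 1.64, mild kidneys from -0.32 to 2.05 and moderate kidneys from -0.17 to 2.38. The difference between mgb-/- and control kidneys was -0.028 ± 0.29 (SE), with an interval of -0.63 to 0.58, so a change of up to about that size in either direction is within the error. The dimmer *Aqp4* probe gave -0.11 ± 0.26.

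*Aqp6*, a channel held in vesicles of acid-secreting intercalated cells, measured 4.49 ± 0.19 (SD) in control kidneys, 4.85 ± 0.26 in the mild grade, 4.33 ± 0.41 in the moderate and 4.68 ± 0.39 in the severe. In 5 of 7 mild kidneys it was above the highest control (4.73), in 1 of 5 moderate kidneys and in 3 of 6 severe kidneys. The difference over all mgb-/- kidneys was 0.16 ± 0.17 (SE, adjusted p = 0.58 in limma). Moderate minus mild was -0.52 ± 0.19, with an unadjusted p of 0.010 and an adjusted p of 0.57 in limma, where 6.68% of all genes had an unadjusted p under 0.05. By the probe used for each gene, *Aqp6* was the sole member with an unadjusted p under 0.05 in any comparison between grades. Its second probe, a dimmer one, gave 0.0021 ± 0.20 for mgb-/- minus control. On the array of severe replicate 4 this probe was at -1.49, where the other severe kidneys gave -3.19 to -2.69. For moderate minus mild that probe gave -0.69 ± 0.21, the same direction, with an unadjusted p of 0.0029 and an adjusted p of 0.51 in limma.

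*Avpr2*, the V2 receptor, was measured with nearly the same mean in all groups: 2.04 ± 0.19 (SD) in control kidneys, then 2.10 ± 0.30, 2.10 ± 0.57 and 2.27 ± 0.38 from mild to severe. The control kidneys lay within 1.81 to 2.35. Moderate kidneys lay on both sides of them, from 1.55 to 2.87, and severe replicate 4 reached 2.84. The mgb-/- minus control difference was 0.11 ± 0.17 (SE), and its interval of -0.24 to 0.46 leaves room for a 1.37-fold rise. Its dimmer probe gave -0.062 ± 0.16 (limma, adjusted p = 0.84).

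*Slc14a2*, which encodes the urea transporters of the inner medullary collecting duct and thin descending limb, measured 1.85, 2.34, 1.76, 2.07, 2.49 and 2.40 in the control kidneys. The mild kidneys gave 2.20, 3.25, 3.14, 2.12, 2.50, 2.59 and 3.26, the moderate kidneys 3.52, 1.57, 3.79, 3.01 and 1.23, and the severe kidneys 3.30, 3.36, 2.66, 3.77, 2.93 and 2.44. Moderate kidneys held both the highest and the lowest level of the study, and 13 of 18 mgb-/- kidneys were above the highest control. The difference was 0.66 ± 0.29 (SE) over all mgb-/- kidneys, with an interval of 0.053 to 1.27 but an adjusted p of 0.14 in limma, and 0.92 ± 0.36 in severe kidneys (adjusted p = 0.084). It was called without moderate replicate 5 (adjusted p = 0.046 over all mgb-/- kidneys and 0.048 in severe kidneys, limma) and, in severe kidneys, without severe replicate 6 (adjusted p = 0.045). Within the slides it was 0.95, -0.060 and 1.09. The probe for the other transcript, NM_030683, spread far more, from -3.68 to 1.29 in control kidneys, -2.94 to 1.07 in mild, -4.05 to 2.66 in moderate and 0.11 to 1.69 in severe kidneys. All 6 severe kidneys were above the control mean of -0.51. It gave 0.18 ± 0.87 (SE) for all mgb-/- minus control kidneys and 1.55 ± 0.99 for severe minus control (adjusted p = 0.30 in limma). Severe minus mild was 2.10 ± 0.96, with an unadjusted p of 0.039 and an adjusted p of 0.45 in limma.

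The epithelial sodium channel is built of an alpha, a beta and a gamma subunit. *Scnn1a*, the alpha subunit, measured 3.99 ± 0.22 (SD) in control kidneys and, in the order of the grades, 4.58 ± 0.28, 4.30 ± 0.49 and 4.27 ± 0.55. All 7 mild kidneys, from 4.21 to 4.96, were above the highest control at 4.16, as in 3% of all genes tested. So were 4 moderate and 4 severe kidneys. The difference was 0.59 ± 0.22 (SE) in mild kidneys (adjusted p = 0.11 in limma) and 0.41 ± 0.19 over all mgb-/- kidneys (adjusted p = 0.15), neither past the threshold. *Scnn1b*, the beta subunit, measured 0.75 ± 0.08 (SD) in control kidneys, the narrowest control spread of the 9 genes, and 1.08 ± 0.37, 0.78 ± 0.28 and 0.80 ± 0.34 in mild, moderate and severe kidneys. Its difference over all mgb-/- kidneys was 0.15 ± 0.15 (SE, adjusted p = 0.52 in limma). *Scnn1g*, the gamma subunit, gave levels from -8.03 to -6.31, not well above background on any of the 24 arrays, so it has only a bound and no fold is given.

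*Slc5a3* encodes the sodium-coupled carrier by which medullary cells take up myo-inositol as an osmolyte. The probe with the higher mean over all arrays measured 1.65, 1.91, 1.29, 1.24, 1.12 and 1.59 in control kidneys. The mild kidneys gave 2.35, 2.49, 3.40, 1.92, 2.43, 2.37 and 2.57, the moderate ones 2.03, 0.71, 3.13, 2.06 and 1.68, and the severe ones 3.47, 3.43, 2.79, 3.12, 1.91 and 1.29. All mild kidneys were again above the highest control, as in 3% of all genes tested, replicate 4 by under 0.01. In all, 14 of 18 mgb-/- kidneys were above it. The level rose by 0.93 ± 0.31 (SE) in mgb-/- kidneys, 1.91-fold with a 95% interval of 1.22 to 2.98 (limma, adjusted p = 0.048), and by 1.20 ± 0.37 in severe kidneys (limma, adjusted p = 0.030). In mild kidneys the difference was 1.04 ± 0.35 (adjusted p = 0.082 in limma) and in moderate kidneys 0.46 ± 0.38 (adjusted p = 0.55). Within the slides it was 0.95, 0.49 and 1.36.

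The *Slc5a3* call lies close to the threshold, and with arrays scaled by their median the adjusted p over all mgb-/- kidneys was 0.075 in limma. Leaving out any 1 of 19 of the 24 kidneys ended it over all mgb-/- kidneys, with adjusted p-values up to 0.11 in limma, and it held without mild replicate 4, moderate replicate 2, moderate replicate 5, severe replicate 5 or severe replicate 6. In severe kidneys it ended without control replicate 3, 4 or 5 or severe replicate 1, 2 or 4 (adjusted p between 0.051 and 0.078 in limma). The second probe of *Slc5a3* was not well above background on the array of severe replicate 4, at -6.52, where the other severe kidneys gave 1.58 to 3.05, and that value also lowered its mean enough to make it the dimmer probe. With all kidneys this probe gave 0.026 ± 0.87 (SE) for mgb-/- minus control, and -0.93 ± 1.04 for severe minus control. Without severe replicate 4 it gave 0.52 ± 0.25 (limma, adjusted p = 0.16), against 0.89 for the probe used, so that the 2 probes had the same sign but only the probe used was called with all 24 kidneys.

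*Slc5a3* shares its place on chromosome 16 with genes that differed in the same direction. Its start and that of *Mrps6*, a mitochondrial ribosomal protein gene, lie 14 bases apart on the same strand. Of the 10 measured genes before *Slc5a3*, in the order of the RefSeq table, none was called, and their median difference between mgb-/- and control kidneys was -0.044. Of the 10 after it, 8 were called, all higher, with a median of 0.82, where 5.34% of all genes tested were called higher. The 8 were *Mrps6* (0.60 ± 0.16, SE), *Fam243* (0.76 ± 0.23), *Rcan1*, an inhibitor of calcineurin (0.87 ± 0.28), *Clic6* (1.22 ± 0.38), the transcription factor *Runx1* (1.42 ± 0.46), *Setd4* (1.42 ± 0.35) and the carbonyl reductases *Cbr1* (1.94 ± 0.43) and *Cbr3* (0.77 ± 0.23). Between them *Kcne2* gave 0.082 ± 0.43 and *Smim11* -0.065 ± 0.080. With 5 genes on each side the counts were 3 after and none before.

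**Figure D2:**
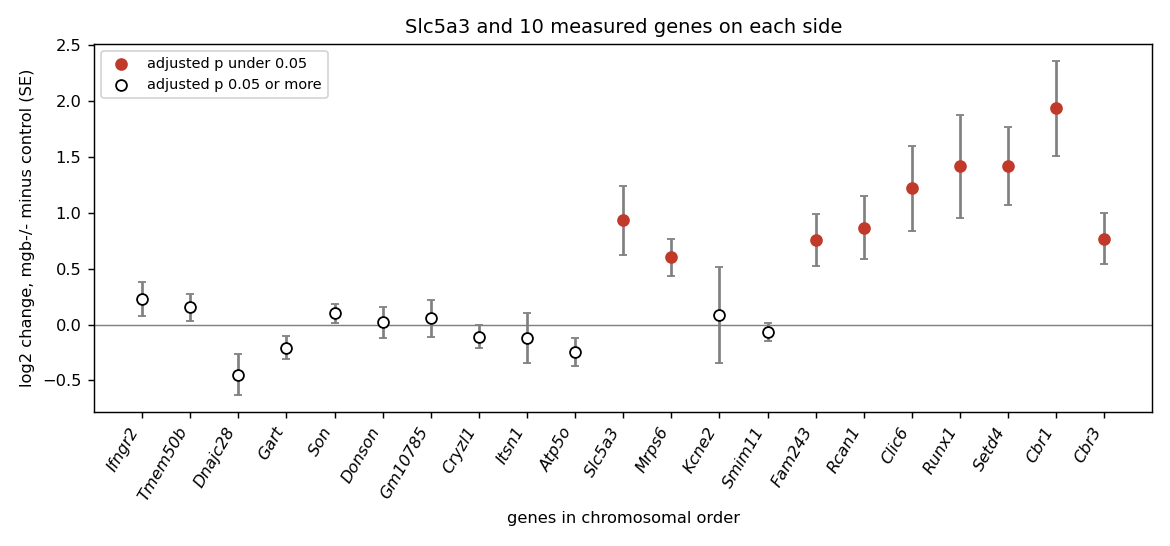
Log2 difference, mgb-/- minus control, for *Slc5a3* and the 10 measured genes on each side of it on chromosome 16, in chromosomal order. Points are estimates from 6 control and 18 mgb-/- kidneys with their SE, filled where the adjusted p is under 0.05. The genes before *Slc5a3* lie around 0, between -0.45 and 0.23, and 8 of the 10 genes after it are filled and higher, up to 1.94 for *Cbr1*.

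The kidneys were not alike in this stretch. *Setd4* measured 0.10 to 0.47 in control kidneys and 1.39 to 2.63 in 14 of the 18 mgb-/- kidneys, but 0.43 in mild replicate 4, 0.16 in moderate replicate 2, 0.08 in moderate replicate 5 and 0.40 in severe replicate 6. In the same 4 kidneys *Cbr1* was 4.03, 3.14, 4.01 and 3.57, against 3.25 to 3.79 in control kidneys and 4.50 or more in the other mgb-/- kidneys. Their *Slc5a3* levels were 1.92, 0.71, 1.68 and 1.29, against a control range of 1.12 to 1.91, and their *Aqp2* levels 5.56, 3.62, 4.71 and 4.88. *Slc5a3* was at or below the top of the control range, within 0.01, in all 4, and also in severe replicate 5 (1.91), where *Setd4* was 1.90. *Aqp2* was within the control range in 3 of the 4 and above it in mild replicate 4. In the same order of kidneys *Mrps6* was 5.81, 4.90, 5.52 and 5.32 (control range 5.05 to 5.46). *Rcan1* was 1.94, 2.92, 2.19 and 2.85 (1.70 to 2.06). *Clic6* was -2.31, -3.69, -2.31 and -3.52 (-3.07 to -2.38). So the called genes of the stretch were not all within or below the control range in these kidneys. All 4 kidneys are labelled mgb-/-, and no genotype was measured here, which limits every difference between mgb-/- and control kidneys. The urothelial list given further on had a mean level of 2.13 or more in every severe kidney, severe replicate 6 among them. In control kidneys that mean was 0.32 at most. What sets the 4 kidneys apart was not tested.

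Read together, 2 of the 9 measurable members were called in mgb-/- against control kidneys, both higher, where 13.3% of all 27971 genes were called in either direction. At an unadjusted p under 0.05 there were 4 of 9, against 29% of all genes. The median difference of the 9 was 0.32, and 8 of 9 were above 0, against a median of 0.010 over all genes. Scaling the arrays by their median instead moved the median of all genes to -0.15, and with it *Aqp6*, *Avpr2* and *Scnn1b* to the other side of 0. Without severe replicate 4 only *Aqp2* of the 9 was called over all mgb-/- kidneys. With all kidneys none of the 9 was called with a fold of 2 or more in addition, as 3.09% of all genes were. In mild kidneys 1 member was called (6.02% of all genes) and 3 had an unadjusted p under 0.05 (21.4% of all genes). In moderate kidneys none was called (1.2% of all genes) and none had an unadjusted p under 0.05 (18.4%). In severe kidneys 2 were called (16.1%) and 4 had an unadjusted p under 0.05 (31.8%).

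**Figure D3:**
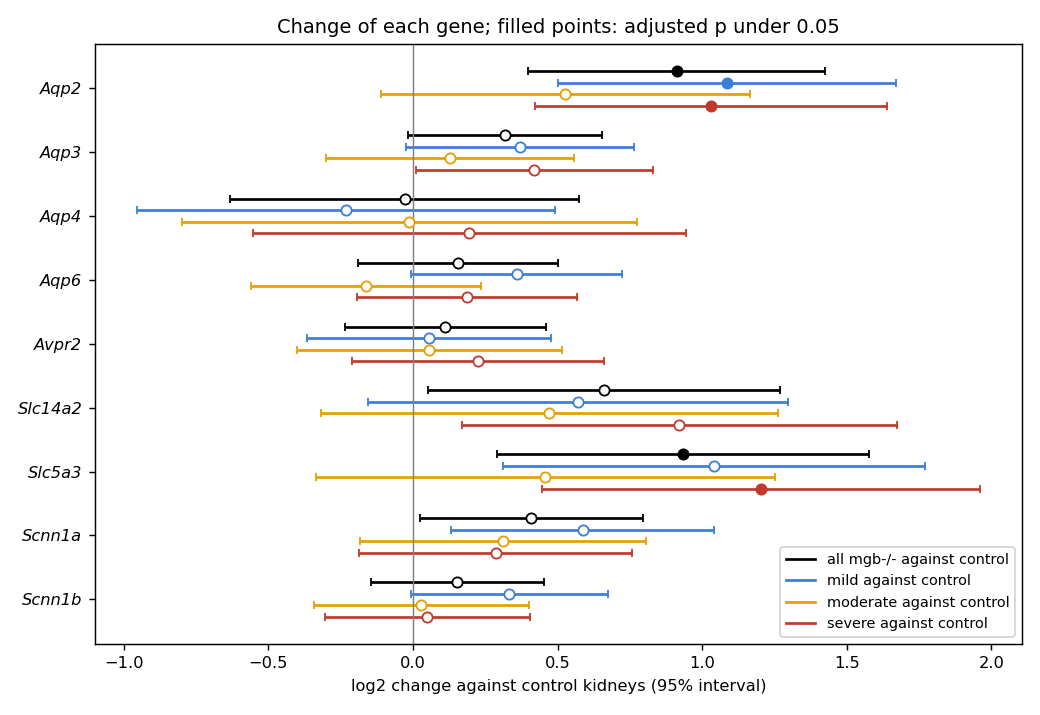
Log2 difference from the 6 control kidneys for the 9 genes, for all 18 mgb-/- kidneys and for each grade. Points are limma estimates with 95% intervals, filled where the adjusted p over all genes is under 0.05. The filled points are *Aqp2* (all mgb-/-, mild and severe) and *Slc5a3* (all mgb-/- and severe), and the moderate interval crosses 0 in all 9 genes.

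No member differed between grades in limma. In moderate against mild kidneys 0% of all genes were called, in severe against mild 0.586% and in severe against moderate 0.00715%. On a slope over the grades within the 18 mgb-/- kidneys, where 0.232% of all genes were called, the estimates per grade ran from -0.15 for *Scnn1a* to 0.21 for *Aqp4*, and *Aqp2* gave -0.039 ± 0.15 (SE), with an interval of -0.36 to 0.28. The comparisons of each grade with control share the same 6 control kidneys.

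The 9 genes varied together from kidney to kidney. Ranked within the 18 mgb-/- kidneys, moderate replicate 2 was among the lowest 4 for all 9 genes, and severe replicate 4 was among the highest 4 for 8 of them. Mild replicate 3 was among the highest 4 for 7, and severe replicate 6 among the lowest 4 for 6. Over these 18 kidneys 35 of 36 pairs of genes had a positive Pearson r, with a median of 0.63 and a range of -0.032 to 0.87, and 18 pairs passed an adjusted p of 0.05 by both Pearson's r and Spearman's rho (permutation tests with 100000 draws, two-sided, adjusted over the 36 pairs). The genes of a kidney share its array and its scaling. How often pairs of other genes passed was not computed, so these counts do not set the 9 genes apart from other genes. With median scaling the median r was 0.57 and in the authors' normalized values 0.66. Within each slide of 6 mgb-/- kidneys, 21 pairs kept a positive r on all 3.

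*Scnn1a* and *Scnn1b*, subunits of 1 channel, had the closest relation (r = 0.87, rho = 0.89, each with a permutation p of 1e-05, the smallest these draws can give, adjusted p = 0.00012 and 0.00024). It stayed at 0.87 without the 2 kidneys farthest from the median and was 0.90, 0.96 and 0.94 within the slides. *Aqp2* followed its receptor gene *Avpr2* (r = 0.81 and rho = 0.88, permutation p = 2e-05 for each, adjusted p = 0.00012 and 0.00024), with r = 0.84 without the farthest 2 and 0.95, 0.70 and 0.74 within the slides. *Aqp2* and *Aqp3* gave r = 0.82 and rho = 0.78 (permutation p = 2e-05 and 0.00013, adjusted p = 0.00012 and 0.0012), r = 0.78 without the farthest 2, and 0.85, 0.83 and 0.93 within the slides. *Aqp2* and *Slc5a3* gave r = 0.83 and rho = 0.76 (permutation p = 1e-05 and 0.00036, adjusted p = 0.00012 and 0.0025), r = 0.69 without the farthest 2, and 0.32, 0.92 and 0.92 within the slides. The weakest relation was between *Aqp4* and *Scnn1b*, at r = -0.032 and rho = -0.12 (permutation p = 0.90 and 0.64, adjusted p = 0.90 and 0.66). Severe replicate 4 was in every r over all mgb-/- kidneys and was not among the farthest 2 left out for these pairs.

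**Figure D4:**
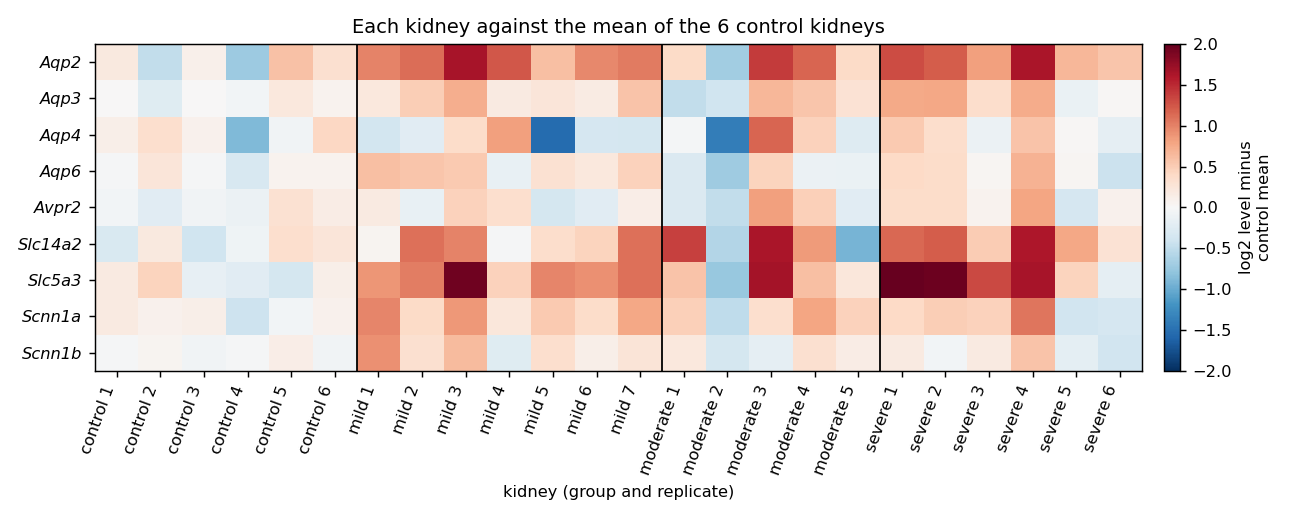
Log2 level of each of the 9 genes (rows) in each of the 24 kidneys (columns), minus the mean of the 6 control kidneys. Red is higher and blue lower than the control mean, on a scale from -2 to 2. Columns tend to hold 1 colour: mild replicate 3, moderate replicate 3 and severe replicate 4 are red in most genes and moderate replicate 2 is blue in all 9.

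Among 27647 genes compared over the 24 kidneys, as values minus the group mean, the 5 most like *Aqp2* included *Zan* (Pearson r = 0.92), the cell adhesion gene *L1cam* (0.89), the homeobox gene *Uncx* (0.88) and, in rank 5, *Avpr2* (0.85). This is a description, and these genes share the same 24 arrays. Of the other members *Aqp4* ranked 25 (r = 0.81), *Aqp3* 51 (0.77) and *Scnn1b* 3427 (0.36).

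Of the other genes of the pathway, listed with earlier results of these data known, the osmolyte and tonicity genes had the most calls with the main scaling. In mgb-/- kidneys 5 of 9 were called higher (5.34% of all genes) and 1 lower (8%), with a median of 0.51. Of these 5, *Mrps6* lies in the raised stretch of chromosome 16 given above. *Slc6a12*, the betaine carrier, rose by 1.24 ± 0.33 (SE, limma, adjusted p = 0.016) and *Sgk1*, a kinase that raises sodium channel activity, by 1.17 ± 0.34 (limma, adjusted p = 0.026). *Mrps6*, the neighbour of *Slc5a3*, the amino acid carrier *Slc38a2* (0.64 ± 0.21) and the taurine carrier *Slc6a6* (0.49 ± 0.15) were the others, and the chaperone gene *Hspa4l* fell by 0.41 ± 0.12. *Nfat5*, the transcription factor of the tonicity response, gave 0.51 ± 0.19 (adjusted p = 0.076 in limma) and rose in severe kidneys by 0.86 ± 0.21 (limma, adjusted p = 0.011). With median scaling 1 gene of this list was called higher and 1 lower, and with quantile normalization 5 higher and none lower, so the *Hspa4l* call ended. In moderate against control kidneys none of the 9 was called in limma (1.2% of all genes).

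Of 14 vasopressin and cyclic AMP genes 3 were called higher (5.34% of all genes) and 1 lower (8%), with a median of -0.063. With median scaling 2 of the 14 were called higher and 1 lower, against 1 and 1 in the osmolyte list. With quantile normalization 4 were called higher and 1 lower. The kinase anchor *Akap12* rose by 1.11 ± 0.30 (SE) and *Pde4d*, a phosphodiesterase that breaks down cyclic AMP, by 0.77 ± 0.16, as did the V1a receptor gene *Avpr1a* by 0.68 ± 0.13. *Prkaca*, a catalytic subunit of protein kinase A, fell by 0.44 ± 0.15 (limma, adjusted p = 0.049). *Prkacb*, another catalytic subunit, gave -0.088 ± 0.060 (adjusted p = 0.35 in limma). *Avp*, the hormone's own gene, was well above background on 8 of 24 arrays and gave 0.025 ± 0.30. Of 11 genes of aldosterone and channel control 2 were called higher (5.34% of all genes), *Sgk1* again and *Cnksr3* (0.46 ± 0.16). The glucocorticoid receptor *Nr3c1* was the 1 called lower (8% of all genes) and fell by 0.38 ± 0.12. With median scaling none of these 11 was called higher, and with quantile normalization none was called lower. *Hsd11b2*, which shields the mineralocorticoid receptor from glucocorticoids, gave -0.040 ± 0.16.

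*Slc14a1*, the urea transporter of descending vasa recta, gave 0.87 ± 0.59 (adjusted p = 0.35 in limma). None of the 5 other aquaporins tested was called in mgb-/- against control kidneys in limma (13.3% of all genes), and 0 had an unadjusted p under 0.05 (29%). *Aqp1*, the channel of the proximal tubule and thin descending limb, was at 0.039 ± 0.11. *Aqp11* fell by 0.78 in severe kidneys (limma, adjusted p = 0.036). *Aqp9*, *Aqp12* and *Avpr1b* were too dim to be tested.

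**Figure D5:**
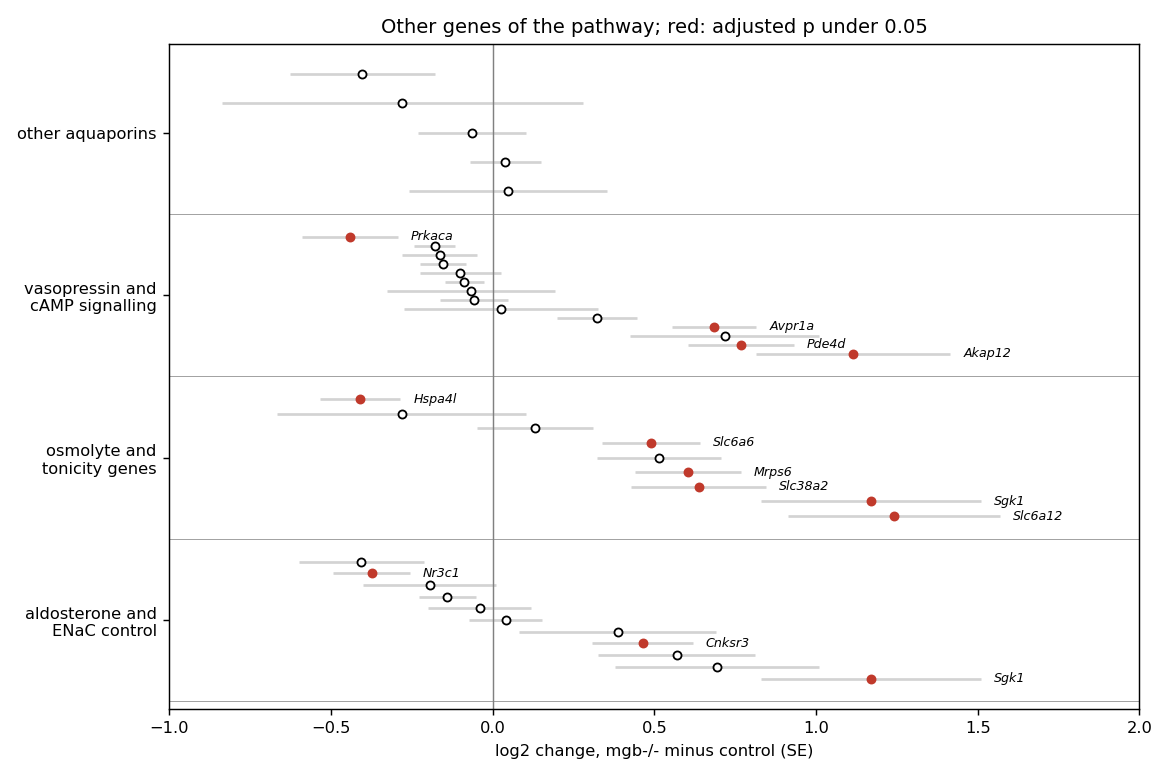
Log2 difference, mgb-/- minus control, of the other genes of the pathway in 4 lists. Each point is a gene with its SE over 6 control and 18 mgb-/- kidneys, red and named where the adjusted p is under 0.05. The osmolyte and tonicity list holds 5 of the red points above 0, and the list of other aquaporins holds none. *Sgk1* is in 2 lists.

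The cells in which the members are made were followed by marker lists. Over all genes 5.34% were called higher and 8% lower in mgb-/- kidneys, and 29% had an unadjusted p under 0.05 in limma. Of 10 principal cell markers 3 were called higher in mgb-/- kidneys, *Stc1* (1.30 ± 0.40, SE), *Ehf* (1.25 ± 0.31) and *Hoxd10* (0.63 ± 0.11), none lower, and the median was 0.12. *Fxyd4*, which modulates the sodium pump of the collecting duct, gave -0.16 ± 0.19. The mean level of the list ran from 0.56 to 1.39 in control kidneys and from 1.17 to 1.68, 0.55 to 1.75 and 1.05 to 1.81 in the 3 grades. With median scaling 2 of the list were called higher and its median was -0.033, and with quantile normalization 2 were called higher. *Stc1* was dim, with a control mean of -4.48, and was well above background on 23 arrays. None of 10 intercalated cell markers was called in limma, 1 had an unadjusted p under 0.05, and the median was 0.20. In mild kidneys none was called either, 7 of the 10 had an unadjusted p under 0.05 (21.4% of all genes), and the median was 0.45. In severe minus mild kidneys 4 had an unadjusted p under 0.05 in limma (11.1% of all genes) and the median was -0.36. The part of these cells in the *Aqp6* values was not tested. In the thick ascending limb list *Cldn16*, a claudin of magnesium and calcium uptake, was the 1 gene of 8 called, rising by 1.70 ± 0.12. No gene of the distal convoluted tubule list (6), the leukocyte list (7), the endothelial list (6) or the podocyte list (5) was called in limma in this comparison, and 0, 1, 1 and 1 of them had an unadjusted p under 0.05. Of 8 proximal tubule genes 1 was called, the urate carrier *Slc22a12*, which fell by 1.16 ± 0.36, but with quantile normalization none was called and with median scaling 2 were called lower. Of 6 fibroblast genes *Acta2* (1.20 ± 0.34) and *Dcn* (0.66 ± 0.21) were called higher, neither of them with median scaling.

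Urothelial markers moved with grade. Of 10, 3 were called higher over all mgb-/- kidneys (5.34% of all genes) and 10 in severe kidneys (6.56%). The median difference of severe from control kidneys was 3.21. The mean level of the list ran from -1.35 to 0.32 in control kidneys and from -1.18 to 1.83, -0.35 to 2.00 and 2.13 to 4.03 in the 3 grades, without overlap between control and severe. In mild kidneys none of the 10 was called in limma (6.02% of all genes) and 1 had an unadjusted p under 0.05 (21.4%). The part of cell make-up in the members' values was not tested.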

How the data were processed

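The authors extracted total RNA from snap-frozen kidneys, labelled it with Cy3 and hybridised it to single-colour Agilent mouse arrays. Per the labels, Agilent Feature Extraction 10.10 read them, and the deposited scanner files hold spot intensity after its background subtraction, not normalized between arrays. The authors' normalized table holds linear intensity values by a method not given in the sources used here. Of 55681 probes 26756 were matched to 1 RefSeq symbol through their accession and 28925 kept the accession. Here spots marked as outliers were left out, log2 of the processed signal minus each array's 75th percentile was taken, 38848 probes that Feature Extraction called well above background on 5 arrays or more were retained, and the brightest probe stood for its gene (27971 genes). Groups came from the labels. Differences were tested with limma 3.58.1 in R 4.3.3 (moderated test, Benjamini-Hochberg over all genes, adjusted p under 0.05): mgb-/- against control in a fit of 2 groups, grades in a fit of 4 groups, and a slope over mild, moderate and severe. The script was tested on simulated data. Python 3.11 with scipy 1.17.1 was used for permutation tests. The members, lists and tests were chosen with earlier results of these data known. Named genes were all members, *Slc5a3*'s neighbours, genes among the 5 most like *Aqp2*, and in each list the 2 called genes with the largest change in each direction plus *Nfat5*, *Slc14a1*, *Aqp1*, *Fxyd4*, *Hsd11b2*, *Sgk1* and *Avp*; others named in full counts of 5 or fewer were chosen after their values were seen. *Prkacb* was named beside *Prkaca* after its values were seen. *Hspa1b*, *Scnn1d* and *Cd68* had no matched probe. Alternatives were other scalings, normexp with an offset of 50, the authors' table, other filters, the mean of probes, slide or replicate number as a block, array weights, other thresholds and leaving out each kidney. Some genes that this rule names, and the counts of the list that holds them, are not reported here.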

Additional observations from a re-analysis of the deposited data

Results flagged for a closer look

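In control replicate 4 the *Aqp4* level was 0.33, below the other control kidneys, the nearest of which was at 1.16. In severe replicate 4 the second *Slc5a3* probe was at -6.52, where the nearest severe kidney was at 1.58, and this spot was not well above background. These 2 were flagged because 1 kidney lay far from the rest of its group, among 44 groups examined (4.55%), and chance flags about 1 in 20. The groups examined did not take in every probe of the members. The second *Aqp6* probe also lay apart in severe replicate 4 (-1.49, nearest severe kidney -2.69). So did the dimmer *Aqp4* probe in control replicate 4 (-0.18, nearest control kidney 0.49).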

How the results depend on the processing

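*Aqp2* kept its direction in mgb-/-, mild and severe against control kidneys under all alternatives run, and its call over all mgb-/- kidneys under all but leaving out control replicate 2 or 4 and asking for a fold of 2. Of 2 members called over all mgb-/- kidneys, only *Aqp2* (1) remained with median scaling, with no filter, with the mean of probes and with the replicate block, 0 with a fold of 2 in addition, and 5 with array weights. The cause was not tested. In mild kidneys (1 called) the count was 0 with median scaling and with the replicate block, 7 with array weights, 4 with the compared groups only and 2 at an adjusted p of 0.1. In severe kidneys (2 called) it was 1 with median scaling and with the mean of probes and 4 with array weights, and *Slc5a3* was not called there with the compared groups only (adjusted p = 0.062 in limma), where *Slc14a2* was (0.038). *Aqp3* was called in severe kidneys with quantile normalization (0.62, adjusted p = 0.045 in limma). Leaving out each kidney gave 0 to 3 members over all mgb-/- kidneys, 0 to 2 in mild, 0 in moderate and 0 to 3 in severe kidneys, and 0 between grades and on the slope. *Aqp2* was not called in mild kidneys without control replicate 2, 3 or 4 or mild replicate 2 or 3, nor in severe kidneys without control replicate 2 or 4 or severe replicate 1 or 2. With 5 neighbours on each side of *Slc5a3*, 3 were called. Same-numbered control, mild and moderate kidneys lay on the same slide, and the labels give no other link. The median correlation of the deviations of same-numbered kidneys was 0.0038, and 10 of 33 pairs were over 0.1, so the numbers were not taken to pair the kidneys. With the number as a block *Aqp2* had an adjusted p of 0.045 in limma.

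Apart from the second *Slc5a3* probe in severe kidneys, the differences that changed sign were not called. Against control over all mgb-/- kidneys, *Aqp6* (-0.00017), *Avpr2* (-0.044) and *Scnn1b* (-0.0026) did with median scaling and *Aqp4* (0.032) with quantile normalization. In mild kidneys *Avpr2* did with median scaling (-0.094), the mean of probes (-0.016) and array weights (-0.049). In moderate kidneys with median scaling *Aqp3* gave -0.020, *Avpr2* -0.090 and *Scnn1b* -0.12; *Avpr2* gave -0.042 with the mean of probes and -0.0054 with weights, *Scnn1b* -0.020 with the replicate block, and *Aqp4* 0.049 with quantile normalization and 0.052 with slide as a block. In severe kidneys *Scnn1b* gave -0.12 with median scaling and the second *Slc5a3* probe -0.93, against a called 1.20 for the probe used. In severe minus mild kidneys *Aqp2* gave 0.016 with quantile normalization, 0.029 in the authors' table and 0.0037 with weights, and *Slc5a3* -0.75 with the mean of probes. Leaving out each kidney moved *Aqp2* in severe minus mild between -0.18 and 0.040, *Aqp3* there between -0.022 and 0.16 and in moderate kidneys between -0.0089 and 0.28, *Aqp4* over all mgb-/- kidneys between -0.21 and 0.061 and in moderate kidneys between -0.31 and 0.33, *Avpr2* in mild kidneys between -0.013 and 0.12 and in moderate kidneys between -0.14 and 0.20, and *Scnn1b* in moderate kidneys between -0.043 and 0.12 and in severe kidneys between -0.054 and 0.14. Over all genes 1493 were called higher and 2238 lower in mgb-/- kidneys, against 601 and 2802 with median scaling, 859 and 1258 with the replicate block and 3476 and 4984 with array weights. The second *Slc5a3* probe and the results without severe replicate 4 were chosen after seeing the data. *Scnn1g* was below background and could not be tested.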
